A study of Homo sapiens with 6 samples.

Results

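The lysosomal membrane separates the acid interior of the lysosome from the cytosol, and it is built from heavily glycosylated proteins, ion channels and transporters. Genes for 10 such proteins were chosen by name: LAMP1, LAMP2, SCARB2, CD63, TMEM106B, CLCN7, MCOLN1, MFSD8, CTNS and NPC1. Of these 10 genes, 9 had a row among the 10542 genes of the deposited expression table, and NPC1, the cholesterol exporter, was not analysed here.

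The cells were DU145, a line established from human prostate cancer. RNA-sequencing was performed in DU145-TFEB cells, infected with a lentivirus that overexpresses TFEB, and in DU145-Vector cells, infected with the blank lentivirus, with 3 libraries of each. Both were stable lines after puromycin selection, and reads of introduced and endogenous TFEB were counted together. Whether the 3 libraries of a group came from separate cultures is not given in the sources used here, so p-values measure only the spread between these libraries, which may be technical.

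TFEB is a transcription factor known for driving genes of the lysosome and of autophagy, many of which carry an E-box called the CLEAR element near their start. When lysosomes are stressed, calcium that leaves through MCOLN1 activates the phosphatase calcineurin, which lets TFEB enter the nucleus. Lysosomal membrane proteins are therefore among the classic genes to examine when TFEB is raised.

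Values are normalized counts, which are reads per gene divided by 1 factor per library, and the libraries held 13999961 to 16511477 reads on the listed genes. TFEB itself lay between 6036 and 6325 in DU145-TFEB and between 124 and 127 in DU145-Vector. The table holds only genes for which the authors' own adjusted p-value was below 0.05, so nearly every row differed between these libraries by selection. With limma on log2(normalized count + 1), 100% of listed genes (10539 of 10542) had an adjusted p-value below 0.05, 47.6% as higher and 52.4% as lower in DU145-TFEB, and in 99.3% the groups did not overlap. A call on a single gene is thus no different from the background, and the sizes and directions below are what the data add. The median log2 fold change of all listed genes was -0.36. Of 10 genes used as markers of DU145 cells, 6 were listed, including the epithelial keratins KRT8 and KRT18 and the mesenchymal filament VIM, with summed normalized counts of 30610 to 39559 in DU145-TFEB and 50640 to 56930 in DU145-Vector. The part of these markers in the results was not tested.

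The 9 genes split by direction. LAMP1, CD63, CLCN7, MCOLN1 and CTNS rose in DU145-TFEB, and LAMP2, SCARB2, TMEM106B and MFSD8 fell, which made 5 higher and 4 lower against a background of 47.6% and 52.4%. MCOLN1 had the largest increase, 2.06-fold, and MFSD8 the largest decrease, with 3.20-fold more in DU145-Vector. In each of the 9 genes, the DU145-TFEB libraries all lay on one side of the DU145-Vector libraries, as they did in 99.3% of all listed genes.

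**Figure D1:**
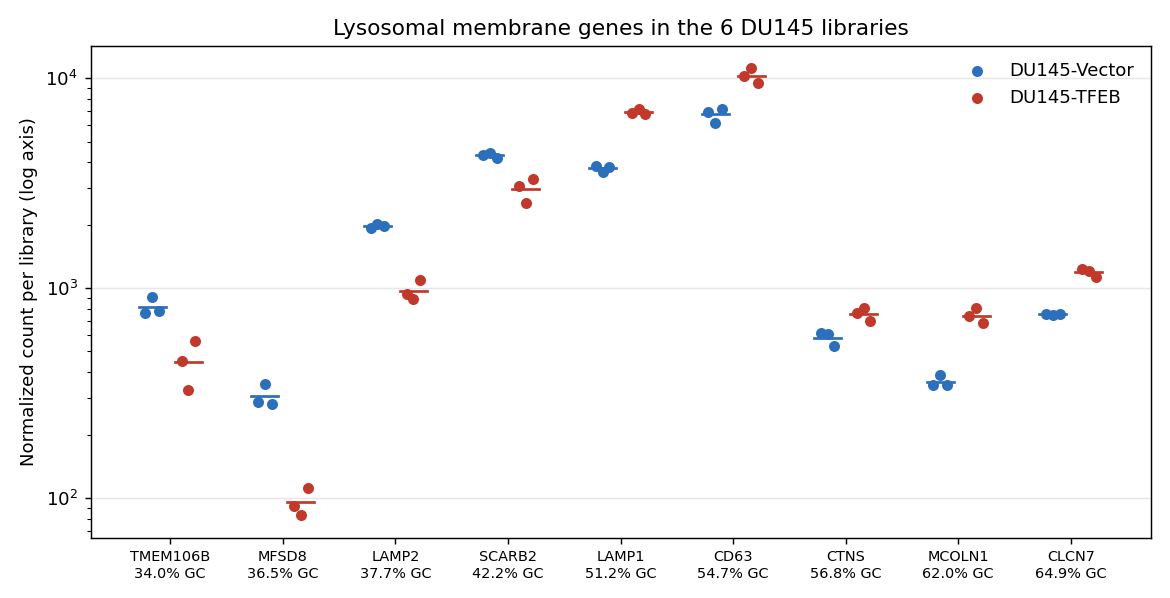
Normalized count (log axis) of each gene in the 3 DU145-Vector libraries (blue) and the 3 DU145-TFEB libraries (red), with a line at each group mean and genes ordered by the GC content of their transcript. The groups do not overlap for any gene, and the 4 genes with the lowest GC content, TMEM106B, MFSD8, LAMP2 and SCARB2, are the ones that fell.

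LAMP1 (ENSG00000185896, chr13:113297241-113323672, plus strand of GRCh38) encodes one of the most abundant proteins of the lysosomal membrane, whose sugar-rich domain lines the inner face. Its normalized counts were 6825, 7178 and 6738 in DU145-TFEB and 3816, 3585 and 3796 in DU145-Vector. The lowest DU145-TFEB library was well above the highest DU145-Vector library. The means were 6913 ± 233 and 3732 ± 128 (SD, n = 3 each), a log2 fold change of 0.89 (standard error, SE, 0.064, adjusted p = 4.20e-06 in limma). LAMP1 thus ranked above 88.5% of the listed genes by its change.

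LAMP2 (ENSG00000005893, chrX:120427827-120469365, minus strand), the close relative of LAMP1, includes among its isoforms the receptor for chaperone-mediated autophagy. It had normalized counts of 941, 888 and 1099 in DU145-TFEB and of 1936, 2028 and 1980 in DU145-Vector. The direction was opposite to that of LAMP1. The mean went from 1981 ± 45.9 to 976 ± 109.5 (SD, n = 3 each), a log2 fold change of -1.03 (SE 0.091, adjusted p = 8.96e-06 in limma). Its isoforms could not be told apart in a table with 1 row per gene.

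The ratio of LAMP1 to LAMP2 within a library does not depend on how libraries are scaled. It was 7.26, 8.08 and 6.13 in DU145-TFEB and 1.97, 1.77 and 1.92 in DU145-Vector. The ratio was therefore 3.77-fold higher with TFEB, with no overlap between the groups (exact two-sided permutation p = 0.1, the smallest that 3 libraries against 3 allow). For this and 5 further ratios given below, the Benjamini-Hochberg adjusted value over the 6 was also 0.1. All of them but CLCN7 to MCOLN1 set a gene that rose over a gene that fell. Neither gene of such a pair overlapped between the groups, so its ratio could not overlap either. The p-value of 0.1 was then fixed in advance and adds nothing to the single genes.

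CD63 and SCARB2 are further abundant membrane proteins. CD63 (ENSG00000135404, chr12:55725323-55729707, minus strand), a tetraspanin of late endosomes, lysosomes and exosomes, had normalized counts of 10233, 11169 and 9508 in DU145-TFEB and of 6945, 6156 and 7141 in DU145-Vector. The log2 fold change was 0.61 (SE 0.084, adjusted p = 1.09e-04 in limma). SCARB2 (ENSG00000138760, chr4:76158733-76234536, minus strand), also called LIMP-2, is among the most abundant proteins of the lysosomal membrane. Its normalized counts were 3068, 2558 and 3315 in DU145-TFEB and 4327, 4434 and 4189 in DU145-Vector, with a log2 fold change of -0.54 (SE 0.095, adjusted p = 4.82e-04 in limma). The CD63 to SCARB2 ratio went from 1.57 ± 0.162 to 3.52 ± 0.767 (SD, n = 3 each, exact two-sided permutation p = 0.1).

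TMEM106B (ENSG00000106460, chr7:12211241-12243367, plus strand) is a single-pass protein of late endosomes and lysosomes known as a risk gene of frontotemporal dementia. It had normalized counts of 450, 327 and 560 in DU145-TFEB and of 763, 908 and 780 in DU145-Vector. The DU145-TFEB libraries lay far apart but below every DU145-Vector library. The log2 fold change was -0.90, with the largest SE of the 9 genes, 0.176 (adjusted p = 9.00e-04 in limma).

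Among the channels, CLCN7 (ENSG00000103249, chr16:1444934-1475580, minus strand) exchanges chloride for protons. It had normalized counts of 1241, 1211 and 1130 in DU145-TFEB and of 752, 745 and 754 in DU145-Vector. The control libraries lay close together, and the log2 fold change was 0.67 (SE 0.077, adjusted p = 3.66e-05 in limma). Its subunit OSTM1, without which the exchanger is unstable, went the other way, from 835 ± 55.7 to 585 ± 51.3 normalized counts (SD, n = 3 each) with a log2 fold change of -0.51 (adjusted p = 7.99e-04 in limma), although it had 0.47 once the trend described further on was removed. The CLCN7 to OSTM1 ratio was 2.33, 2.05 and 1.78 in DU145-TFEB and 0.941, 0.829 and 0.934 in DU145-Vector (exact two-sided permutation p = 0.1).

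MCOLN1 (ENSG00000090674, chr19:7522626-7534009, plus strand) is the calcium channel TRPML1. Its normalized counts were 738, 804 and 682 in DU145-TFEB and 346, 387 and 346 in DU145-Vector. Every DU145-TFEB library had clearly more than any control library, and the log2 fold change was 1.04 (SE 0.102, adjusted p = 1.50e-05 in limma). MCOLN1 ranked above 92.4% of the listed genes, the highest rank of the 9. The end of MCOLN1 overlaps the start of PNPLA6 on the same strand, and PNPLA6 had a log2 fold change of 1.13. The overlap is only a few bases, as PNPLA6 starts at position 7534004 and MCOLN1 ends at 7534009. The CLCN7 to MCOLN1 ratio went from 2.09 ± 0.145 to 1.61 ± 0.0952 (SD, n = 3 each, exact two-sided permutation p = 0.1), so the calcium channel rose more than the chloride exchanger. MCOLN1 to TMEM106B, a gene that rose against one that fell, went from 0.441 ± 0.0138 to 1.77 ± 0.633 (SD, n = 3 each, exact two-sided permutation p = 0.1).

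MFSD8 and CTNS are transporters, each behind a lysosomal storage disease. MFSD8 (ENSG00000164073, chr4:127917732-127966034, minus strand), the CLN7 protein, had normalized counts of 91.5, 82.8 and 112 in DU145-TFEB and of 286, 351 and 280 in DU145-Vector. It was the least abundant of the 9 genes, with 87 reads or more in each library. The log2 fold change was -1.67 (SE 0.159, adjusted p = 1.32e-05 in limma), and MFSD8 alone passed the study's cutoff of an absolute log2 fold change above 1.5, which 16.5% of listed genes passed as lower and 2.54% as higher. MFSD8 overlaps ABHD18 on the opposite strand, whose log2 fold change was -0.88. The sources used here do not say if counting took strand into account. MFSD8 missed the cutoff with DESeq2's size factors (-1.43), and of all genes past it 86.7% were lower here but 58.9% with quantile normalization.

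CTNS (ENSG00000040531, chr17:3636468-3661542, plus strand) exports cystine from the lysosome together with protons. Its normalized counts were 764, 806 and 697 in DU145-TFEB and 612, 606 and 531 in DU145-Vector, so the groups were close but apart. The log2 fold change of 0.37 (SE 0.098, adjusted p = 0.00468 in limma) was the smallest of the 9. The CTNS to MFSD8 ratio went from 1.92 ± 0.207 to 8.10 ± 1.77 (SD, n = 3 each, exact two-sided permutation p = 0.1), the widest shift of the ratios examined. CTNS and CD63 each overlap a listed antisense RNA, AC027796.4 and AC009779.2, with log2 fold changes of 1.19 and 0.71.

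Because the genes moved in opposite directions, the summed normalized counts of the 9 changed by a smaller factor than each of them. The sum went from 19593 ± 340.3 to 24405 ± 593 with TFEB (SD, n = 3 each, exact two-sided permutation p = 0.1). LAMP1 went from 19.0% ± 0.328 to 28.3% ± 0.333 of the sum, LAMP2 from 10.1% ± 0.400 to 4.01% ± 0.544 and SCARB2 from 22.04% ± 0.977 to 12.2% ± 1.87 (SD, n = 3 each). CTNS held its share, with 3.09% ± 0.154 and 2.98% ± 0.257, and its groups overlapped on this scale (exact two-sided permutation p = 0.6).

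Levels of different genes were compared only as normalized counts per kilobase of the authors' gene length. In DU145-Vector, CD63 was the most abundant with 2563 ± 198 per kilobase, ahead of LAMP1 with 650 ± 22.3, LAMP2 with 359 ± 8.31 and SCARB2 with 223 ± 6.34 (SD, n = 3). CLCN7 and MCOLN1, with 92.4 ± 0.569 and 90.9 ± 6.01, did not differ beyond their spread. In DU145-TFEB, CD63 and LAMP1 were again first with 3913 ± 316 and 1205 ± 40.6, but LAMP2 with 177 ± 19.8 now lay below CTNS with 222 ± 16.2 and did not differ from MCOLN1 with 187 ± 15.5 beyond their spread (SD, n = 3). MFSD8 was last in both groups, with 33.6 ± 4.33 in DU145-Vector and 10.5 ± 1.65 in DU145-TFEB per kilobase.

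TFEB binds the E-box CACGTG, most strongly within TCACGTGA, the core of the CLEAR element. Both words read the same on either strand, and every TCACGTGA also counts as a CACGTG. They were looked up in the RefSeq promoters of GRCh38.p14, from 250 bases before to 50 bases after each gene's start, where 8 of the 9 genes had an entry, all but LAMP2. CACGTG was present in 4 of the 8, and these 4, LAMP1, MCOLN1, CLCN7 and CD63, were all among the genes that rose. The remaining 4, without the word at any of their listed starts, were CTNS, which rose least, and SCARB2, TMEM106B and MFSD8, which fell. The sites that carry this pattern are shown 5′ to 3′ along the gene, all of them for MCOLN1, CLCN7 and CD63 and 3 of 6 for LAMP1, with CACGTG and any adjoining T before or A after it in capitals.

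LAMP1, chr13:113297068-113297097, plus strand: gccgctgcgggTCACGTGccgctgcgggtc
LAMP1, chr13:113297199-113297228, plus strand: gacccgcgggaTCACGTGAcgcccgggcgc
LAMP1, chr13:113297226-113297255, plus strand: cgcggcgcagcTCACGTGAcaagcgctgcc
MCOLN1, chr19:7522571-7522600, plus strand: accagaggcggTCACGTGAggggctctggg
MCOLN1, chr19:7522598-7522627, plus strand: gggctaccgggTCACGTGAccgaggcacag
CLCN7, chr16:1475058-1475087, minus strand: gccgtcgctcaTCACGTGgccccgtcgcgc
CLCN7, chr16:1475038-1475067, minus strand: cccgtcgcgcgTCACGTGgccgccggcgcg
CD63, chr12:55729172-55729201, minus strand: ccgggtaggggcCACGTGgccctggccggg

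LAMP1 held 6 copies of CACGTG, which began at -192, -176, -159, -142, -28 and -1 from the start, and both copies nearest the start were the full TCACGTGA. It was the only 1 of 35116 RefSeq promoters of this length with 6 or more. MCOLN1 held 2 full copies, at -41 and -14. CLCN7 held 2 copies with the T but not the A, at -47 and -27, and CD63 held 1 bare copy at -180 from 1 of its 8 listed starts. For comparison, 7.26% of all RefSeq promoters held CACGTG, 0.664% held it at least 2 times and 0.98% held TCACGTGA. Those shares count single promoters. Counted at any start of a gene, 12.6% of 7619 listed genes held CACGTG and 2.4% held TCACGTGA.

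**Figure D2:**
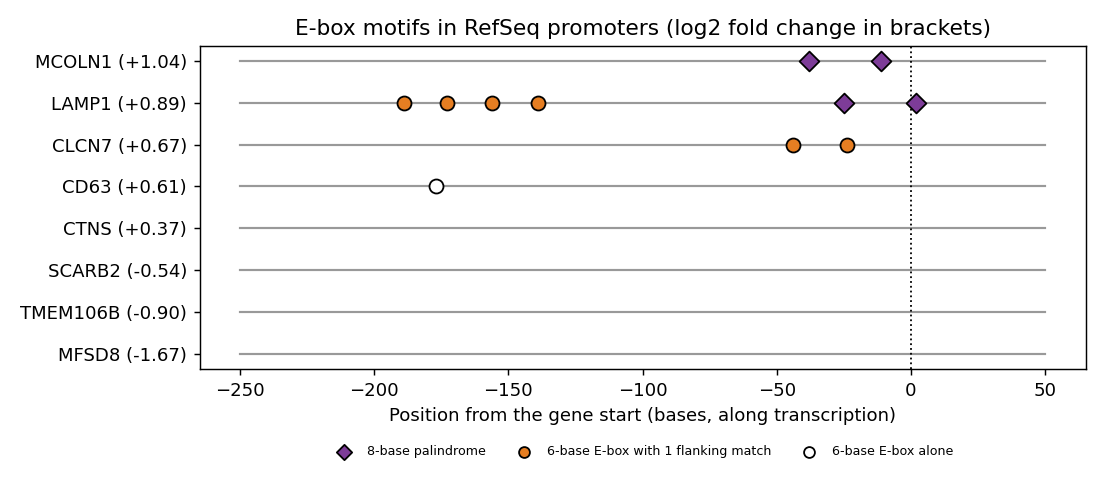
Positions of E-box words from 250 bases before to 50 bases after the gene start (dotted line) for the 8 genes with a RefSeq promoter, ordered by log2 fold change from the highest at the top. Diamonds are the 8-base palindrome, orange circles the 6-base E-box with 1 matching flank, and the white circle the E-box alone, with all starts of a gene drawn on 1 line. The 4 genes at the top carry the motif and the 4 below do not.

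Such a match is a description of letters and not of binding, and over the whole table it separated higher from lower genes little. Among listed genes with a promoter entry, CACGTG was present at any start in 13.7% of 3562 genes higher in DU145-TFEB and in 11.6% of 4056 lower genes, and TCACGTGA in 2.33% and 2.47%. Of the other lysosomal membrane genes described further on, 9 of 38 higher and 6 of 19 lower genes held CACGTG.

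The direction of the 9 genes also followed the base composition of their transcripts. The 5 genes that rose had longest transcripts of 51.2% to 64.9% GC, and the 4 that fell had 34.0% to 42.2% GC, with no overlap. Across these 9 genes, which share the same 6 libraries, the Pearson correlation between GC content and log2 fold change was 0.90 and Spearman's rho was 0.80. The same relation ran through the listed genes at large, with a Pearson correlation of 0.72 over 10537 genes.

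**Figure D3:**
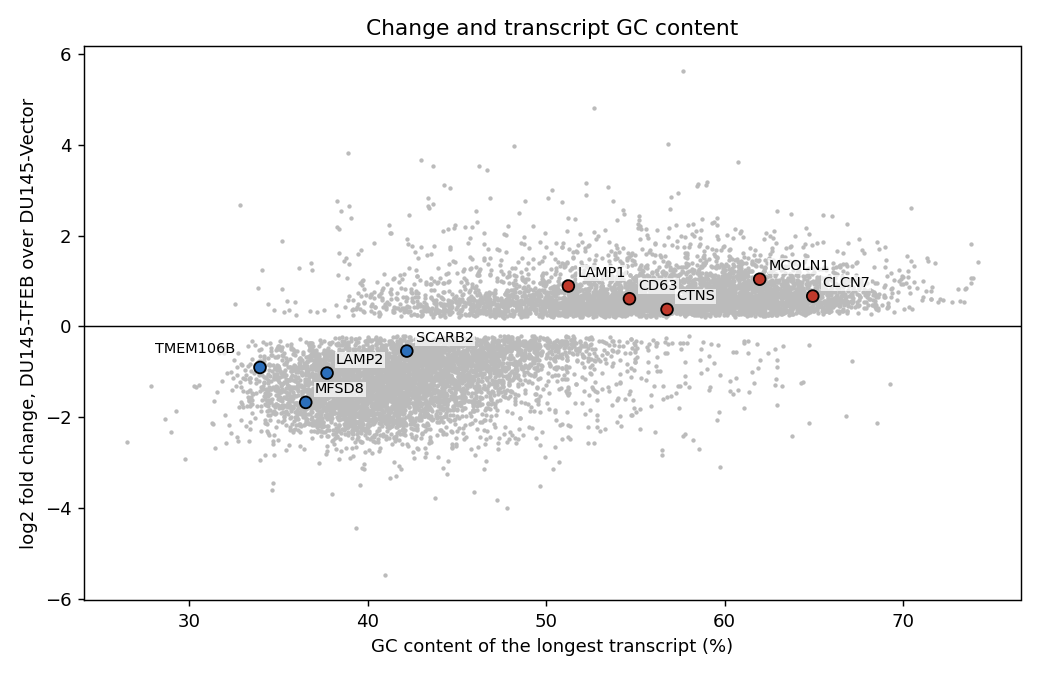
log2 fold change in DU145-TFEB over DU145-Vector against the GC content of the longest transcript, with listed genes as grey dots and the 9 genes as large dots (red higher, blue lower). The empty band around 0 comes from the authors' selection of the listed genes, and the 9 genes lie within the rising cloud, from TMEM106B at 34.0% GC to CLCN7 at 64.9% GC.

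Single libraries varied along the same axis. Over all listed genes, each 10 points of GC content changed the value against the mean of the 6 libraries by 0.43, 0.56 and 0.32 on the log2 scale in DU145-TFEB replicates 1, 2 and 3, and by -0.39, -0.54 and -0.38 in the DU145-Vector replicates. Replicate 2 was the steepest library of both groups. Among the 4 genes that fell, replicate 2 was also the lowest DU145-TFEB library and the highest DU145-Vector library in each case, as in TMEM106B with 327 and 908 normalized counts. Since each group lies wholly on one side of this slope and no batch is given, a library effect on composition and an effect of TFEB cannot be told apart here.

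When the trend against GC content and gene length was removed from each library, with its mean level kept, the picture changed for most of the genes. LAMP1 was still higher, with a log2 fold change of 0.51 (SE 0.050, adjusted p = 5.37e-06 in limma), and MFSD8 was still lower, with -0.50 (SE 0.121, adjusted p = 0.00307 in limma). LAMP2 (-0.07, limma adjusted p = 0.385) and MCOLN1 (0.02, limma adjusted p = 0.897) no longer passed. The other 5 turned direction, CLCN7 to -0.38, CD63 to -0.12, CTNS to -0.46, TMEM106B to 0.42 and SCARB2 to 0.29, with limma adjusted p between 4.39e-04 and 0.0427. Of all calls over the listed genes, 47.6% were higher before and 22.6% after. By count, 3 of the 9 were then higher and 4 lower, where 15.6% of all listed genes were higher and 53.7% lower and their median was -0.30. These directions are against 0 and not against that median. By rank with the trend removed, LAMP1 lay above 90.4% of listed genes, TMEM106B above 88.2% and SCARB2 above 84.5%. MCOLN1, LAMP2 and CD63 lay above 72.0%, 67.0% and 63.3%, and CLCN7, CTNS and MFSD8 above 44.4%, 38.4% and 35.2%.

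**Figure D4:**
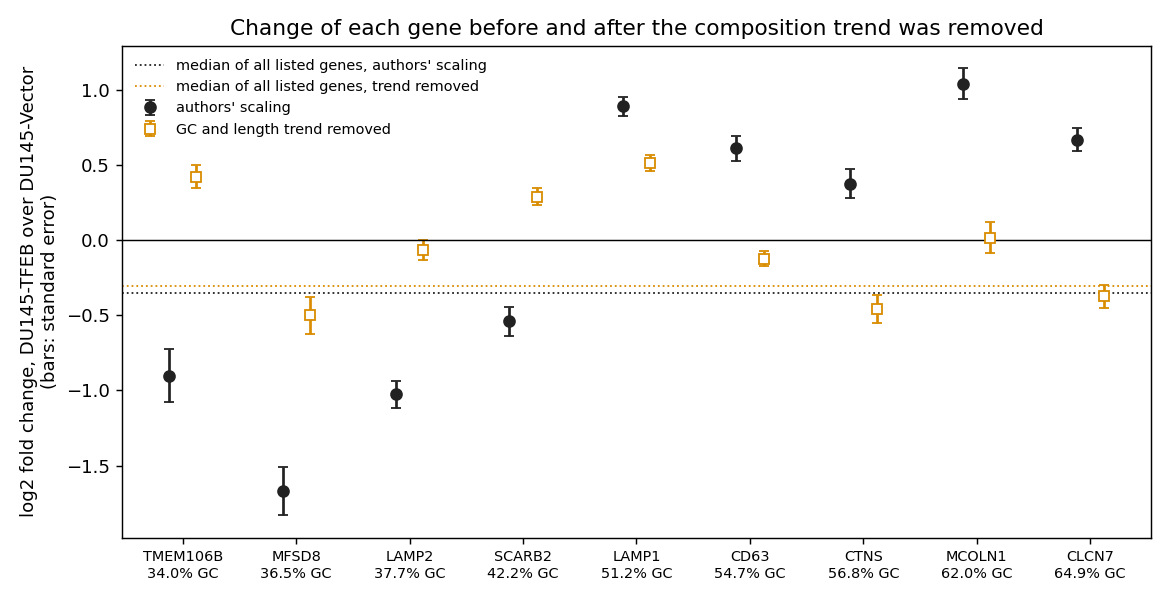
log2 fold change with its standard error for the 9 genes, ordered by GC content, with the authors' scaling (black) and after the trend against GC content and gene length was removed (orange squares), and dotted lines at the medians of all listed genes. LAMP1 stays above 0 and MFSD8 below 0 under both, while TMEM106B goes from -0.90 to 0.42.

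The ratios changed as well. LAMP1 to LAMP2 was still higher in DU145-TFEB with the trend removed, by 0.58 on the log2 scale against 1.92 before, and the groups did not overlap. CLCN7 to MCOLN1 moved least, from -0.37 to -0.39, and both transcripts are rich in GC (64.9% and 62.0%). CTNS to MFSD8 went from 2.05 to 0.04, with overlapping groups. CD63 to SCARB2, CLCN7 to OSTM1 and MCOLN1 to TMEM106B turned to -0.41, -0.85 and -0.40.

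Other lysosomal membrane genes were taken from 3 lists. The label is a loose one, as the lists also hold relatives such as the lipoprotein receptor SCARB1. Of 101 genes, 66 had a row, and 46 of these were higher and 20 lower in DU145-TFEB, with a median log2 fold change of 0.47, beside 47.6% and 52.4% of all listed genes and their median of -0.36. With the trend removed, 17 were higher, 29 were lower and 20 did not pass, with a median of -0.16, beside 15.6%, 53.7% and -0.30 over all listed genes. The same shares over all listed genes are the background of each list below.

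Among membrane glycoproteins and tetraspanins, 23 of 31 listed genes were higher and 8 lower, and with the trend removed 11 were higher, 12 lower and 8 not called (median -0.01). The highest were CLN3, a membrane protein behind juvenile Batten disease, SCARB1, a lipoprotein receptor and relative of SCARB2, and GLMP, with log2 fold changes of 1.39, 1.11 and 1.01. CLN3 was scarce, with 7 reads in its lowest library. The lowest were CD164, and the SNARE proteins of lysosome fusion VAMP7 and STX7, with -1.35, -1.13 and -0.96. With the trend removed, 4 of these 6 passed in the same direction, SCARB1 (0.50), VAMP7 (-0.45), GLMP (0.21) and CLN3 (0.86), with limma adjusted p = 1.96e-05, 4.79e-04, 0.0407 and 0.0465. CD164 (-0.16) and STX7 (0.27) did not pass (limma adjusted p = 0.0512 and 0.0502).

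Among channels and ion transporters, 8 of 17 listed genes were higher and 9 lower, and with the trend removed 3 were higher, 9 lower and 5 not called (median -0.35). SLC30A3, a zinc transporter, the ATP-gated channel P2RX4 and the sodium and calcium channel TPCN1 were highest, with log2 fold changes of 1.05, 0.89 and 0.70. MCOLN3, the relative of MCOLN1, was the lowest, going from 169 ± 29.3 to 60.7 ± 11.3 normalized counts (SD, n = 3 each), with a log2 fold change of -1.47 (adjusted p = 7.67e-05 in limma). ATP7A, a copper pump, and SLC30A4, a zinc transporter, followed with -1.37 and -1.28. P2RX4 was higher still with the trend removed (1.21, limma adjusted p = 4.99e-07) and MCOLN3 was still lower (-0.76, limma adjusted p = 0.00178), whereas SLC30A3 (0.29), TPCN1 (0.07), ATP7A (-0.35) and SLC30A4 (-0.35) did not pass. The listed relatives of CLCN7 were CLCN3, CLCN5 and CLCN6, with log2 fold changes of -1.14, -1.20 and -0.35. With the trend removed they had -0.24, -0.54 and -0.77. All lay below 0, but so did the medians of all listed genes, -0.36 before and -0.30 after the trend was removed. CLCN6 was close to that median before removal, and CLCN3 lay above it after removal.

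Among transporters of small molecules, 15 of 18 listed genes were higher and 3 lower. With the trend removed, 3 were higher, 8 lower and 7 not called (median -0.18), near the background of 15.6% higher and 53.7% lower (median -0.30). MFSD12, a cysteine importer of lysosomes and melanosomes, went from 1277 ± 127 to 3914 ± 106.1 normalized counts (SD, n = 3 each), a log2 fold change of 1.62 (adjusted p = 2.30e-06 in limma), and it was still higher with the trend removed (0.49). SPNS1, with 3 reads in its lowest library, and ABCA2 followed with 1.39 and 1.02. The lowest 3 were SLC38A9, the arginine sensor of mTORC1, SLC36A4 and SLC46A3, with -1.69, -1.21 and -1.08. With the trend removed, ABCA2 (0.20), SLC38A9 (-0.50) and SLC46A3 (-0.49) passed in the same direction, and SPNS1 (0.50) and SLC36A4 (0.04) did not pass.

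**Figure D5:**
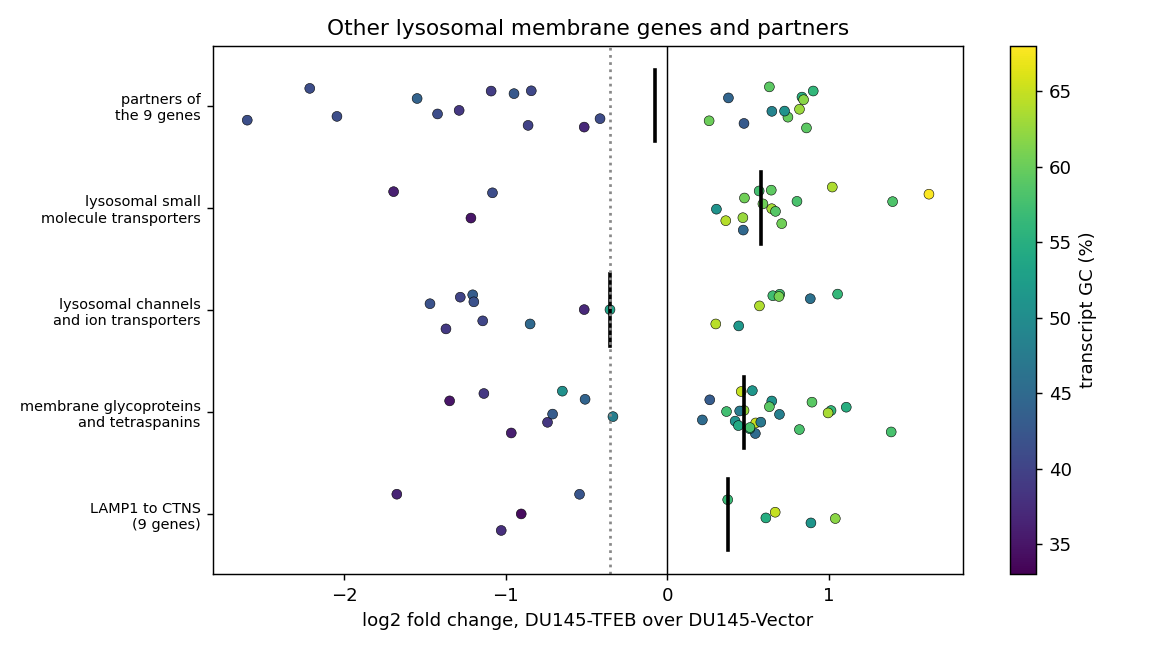
log2 fold change of the 9 genes and of listed genes in 3 lists of lysosomal membrane genes and a list of partners, 1 dot per gene, coloured by transcript GC content, with black lines at list medians and a dotted line at the median of all listed genes. In each list the dark dots, low in GC, lie mostly on the left, and the 31 glycoproteins and tetraspanins and 18 transporters have medians of 0.48 and 0.58.

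Proteins that work with the 9 gene products were listed separately, and 24 of 37 had a row, 12 higher and 12 lower, and with the trend removed 6 were higher, 13 lower and 5 not called (median -0.20). NPC2, which hands cholesterol to NPC1 inside the lysosome, went from 1319 ± 85.5 to 1714 ± 58.3 normalized counts (SD, n = 3 each), a log2 fold change of 0.38 (adjusted p = 0.00116 in limma), and 0.56 with the trend removed. AP3D1, a subunit of the AP-3 adaptor, and GRN, the precursor of the granulins, had log2 fold changes of 0.86 and 0.84. With the trend removed, AP3D1 did not pass (0.11, adjusted p = 0.0696 in limma) and GRN turned to -0.18 (adjusted p = 0.0492 in limma). MCOLN1 opens on a lipid made by the kinase PIKFYVE with FIG4 and the scaffold VAC14. PIKFYVE went from 1221 ± 77.6 to 284 ± 132 normalized counts (SD, n = 3 each), a log2 fold change of -2.21 (adjusted p = 7.47e-05 in limma), and -1.36 with the trend removed. FIG4 fell as well (-1.55, or -1.25 with the trend removed), whereas VAC14 rose (0.75, or -0.08 with the trend removed). LGALS8, a galectin that binds damaged lysosomes, was the lowest partner, with 88.0 ± 27.2 against 526 ± 78.4 normalized counts (SD, n = 3 each) and a log2 fold change of -2.60 (adjusted p = 6.17e-06 in limma), and -1.73 with the trend removed.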

How the data were processed

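mRNA libraries (NEBNext Ultra) of 3 DU145-TFEB and 3 DU145-Vector samples were grouped and numbered by their titles. The submitters' processing notes name CASAVA 1.8, HISAT2 2.1.0, edgeR and GRCh38, and the study's methods name DESeq2. The counting program and strand setting are not given in the sources used here. The authors deposited a normalized signal per gene, that is read counts divided by 1 size factor per library (0.950 to 1.10). Their group means, log2 fold changes and p-values, also deposited, went unused, except that every adjusted p-value in the table was seen to lie below 0.05. Library values were whole multiples of 1 step (100% within 0.01), so reads were recovered. Other deposited columns such as gene length were used as given.

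log2(normalized count + 1) of all 10542 listed genes was tested with limma 3.58.1 (mean-variance trend, R 4.3.3) and Benjamini-Hochberg adjustment over these genes. The study's design was fitted this way because the table holds no raw counts. edgeR 4.0.16 and DESeq2 1.42.0 were run on recovered reads as alternatives. Ratios were tested by exact permutation (scipy 1.17.1). GC content came from the longest GENCODE 29 transcript (10537 genes), whose gene positions equalled those of the table for 10542 genes, and the trend was fitted by loess with a span of 0.5. Each of the 9 genes had at least 87 reads in each library. Scripts were tested on simulated data. The 10 genes and the lists were chosen with earlier results of these data known. Named are the 10 genes, ratio partners, TFEB and the 3 highest and 3 lowest genes of each list. A few genes that this rule or the marker lists name are not reported here. PIKFYVE's partners FIG4 and VAC14, CLCN7's relatives, the markers, overlapping genes and the genes of the closing section were named after their values were seen. Ratios of NPC1 were not analysed here.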

Additional observations from a re-analysis of the deposited data

How the results depend on the processing

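The 5 higher and 4 lower genes had these directions, and an adjusted p below 0.05, under every alternative pseudocount, filter, scaling and test tool, with the replicate block, and without each library in turn. Exceptions came with the trend against GC content and gene length removed, with or without the replicate block. Under both, 3 genes were higher, 0 passed the fold cutoff, LAMP2 (-0.066) and MCOLN1 (0.016) lost the call, and CLCN7 (-0.38), TMEM106B (0.42), SCARB2 (0.29), CD63 (-0.12) and CTNS (-0.46) reversed. With the replicate block as well, the limma adjusted p of CD63 was 0.0625. The median of the other lysosomal membrane genes reversed to -0.16, and the ratios CD63 to SCARB2, CLCN7 to OSTM1 and MCOLN1 to TMEM106B reversed to -0.41, -0.85 and -0.40. That trend follows GC content by construction, and what lies behind it was not tested.

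MFSD8 passed the fold cutoff in the main analysis, but 0 genes did with DESeq2's size factors, upper-quartile or quantile scaling, or DESeq2 on recovered reads. The median of the other lysosomal membrane genes was 0.71 with DESeq2's size factors, 0.65 with upper-quartile scaling, 0.66 with quantile normalization, 0.55 with edgeR and 0.72 with DESeq2, and the median of all listed genes ran from -0.40 (library size) to -0.03 (quantile). Without 1 library at a time, TMEM106B ranged from -1.08 to -0.70 and MFSD8 from -1.79 to -1.57. Over all listed genes, 2009 passed the fold cutoff, 1261 with a pseudocount of 10, 1225 with a mean of at least 100 and 600 with the trend removed, and 86.7% of these were lower in the main analysis, 58.9% with quantile normalization. DESeq2 with the authors' size factors was added after seeing the data and changed no call. Same-numbered libraries did not deviate in the same direction (correlations of -0.02, -0.25 and -0.14). Replicate 2 was, however, the steepest library against GC content in both groups, with slopes of opposite sign. With so few libraries these correlations cannot exclude a shared batch. The replicate block left 5 higher and 4 lower genes.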

Other observations

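Several partners act as complexes, whose listed subunits did not all move alike. Of the AP-3 adaptor, which carries membrane proteins such as LAMP1 and CD63 to the lysosome, AP3D1 rose (log2 fold change 0.86) while AP3B1 and AP3M1 fell (-1.29 and -2.04), and with the trend against GC content and gene length removed AP3M1 had -1.31, AP3B1 -0.29 and AP3D1 0.11. The listed subunits of calcineurin, PPP3CA, PPP3CB and PPP3R1, had log2 fold changes of -0.95, -0.42 and -0.84. With the trend removed they had -0.39, 0.29 and -0.24, so PPP3CB turned direction. Over all listed genes 52.4% were lower, and the medians were -0.36 and, with the trend removed, -0.30. PPP3CB was close to that median before removal, and PPP3R1 lay above it after removal. Of the CD63 partners in exosome formation, SDCBP and PDCD6IP fell (-1.09 and -0.86), and had -0.27 and 0.10 with the trend removed. PDCD6IP then did not pass (adjusted p = 0.222 in limma). The syndecans SDC1 and SDC4, also in the partner list, rose (0.26 and 0.65), and had -0.71 and 0.38 with the trend removed.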
